A study of Homo sapiens with 2 samples.

Results

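From the T cell killing programme, 10 genes were followed across both libraries of the study: the granule proteases GZMA, GZMB and GZMH, the other granule genes PRF1, GNLY and NKG7, the cytokine gene IFNG, and the chemokine genes CCL3, CCL4 and CCL5. They are 10 of the 33538 genes in the files and were chosen by name. The CTL persister library came from A375, a human melanoma cell line, and held cells still alive after NY-ESO-1 CTLs had been present for 15 days. CTLs are cytotoxic T lymphocytes, and NY-ESO-1 is a tumour antigen that normal tissues other than testis hardly make. The coculture medium held 7.5 ng/mL recombinant IL-2, and the CTLs were renewed every 3 days. The parental library came from untreated A375 cells. Cells of both groups were grown with serum, washed, and detached with trypsin. Whether the parental medium held IL-2, how the T cells were made and how many donors gave them is not stated in the labels. Each group had 1 library, so nothing below was tested between groups, and every interval is a 95% exact interval for counting error only.

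CTLs kill a bound target by releasing granules. Perforin opens the target membrane, and granzymes enter through the pore and cut proteins that set off cell death. Activated CTLs also secrete interferon gamma, which raises antigen presentation on tumour cells, and CC chemokines, which draw in more immune cells.

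A cell barcode was kept with at least 500 genes and 1000 unique molecular identifiers (UMIs, 1 for each captured RNA molecule). Kept barcodes were called T cell barcodes when at least 3 of 8 T cell markers were detected (CD2, CD3D, CD3E, CD3G, CD52, LCK, PTPRC, TRAC), and the remaining persister barcodes are called tumour barcodes. None of the 10 effector genes entered that rule. It found 169 T cell barcodes among 6812 kept persister barcodes, or 2.48% (2.12 to 2.88%). Among 10634 kept parental barcodes it found 0, so up to 0.0282% could have gone unseen. The T cell barcodes held 878251 UMIs in all, with a median of 3477 UMIs each. Tumour barcodes numbered 6643 and had a median of 11244 UMIs, and parental barcodes a median of 7589.5 UMIs. A total of 38 barcode sequences occurred in both libraries, 1 of them a T cell barcode.

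The label of cytotoxic T cells was checked against markers. CD8A or CD8B had a UMI in 79 of the 169 T cell barcodes and CD4 in 1, and CD8A stood at 94.5 CPM (counts per 1000000 UMIs). Of 8 natural killer markers, 7 had a UMI in T cell barcodes and KLRF1 had 0, and the list summed to 53.5 CPM there, against 19.7 CPM in tumour barcodes and 2.67 CPM in the parental library. NCR3 alone gave 34.2 CPM of it, and the defining genes NCAM1 and FCGR3A had 3.42 and 1.14 CPM. The gamma delta receptor genes TRGC2 and TRDC stood at 18.2 and 13.7 CPM, with TRGC1 at 0. Of 4 B cell markers, 1 had a UMI, and of 7 myeloid markers, 2 had a UMI.

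Melanoma RNA was also present in these barcodes. Of 10 melanoma markers, 7 had UMIs in T cell barcodes (PMEL, MLANA and MITF at 0). The sum of the list was 3098 CPM, against 9234 CPM in tumour barcodes and 826 CPM in the parental library. TIMP1 alone gave 2486, 7793 and 358.9 CPM of these sums, so they mostly follow 1 gene in both persister classes. SOX10 was 95.6, 179.1 and 99.6 CPM in the same order. PMEL and MLANA were also near 0 in tumour barcodes, at 0.138 and 0.0126 CPM. At least 3 melanoma markers were detected in 34 of the 169 T cell barcodes, whose median depth was 11824 UMIs. The other 135 had a median of 2978 UMIs. No doublet caller was run, and whether the 34 are T cells captured with a tumour cell was not tested. Summed effector RNA was 2838 CPM in the 34 barcodes and 15221 CPM in the other 135, so the sum is given with and without the 34. Values of single genes are from all 169 T cell barcodes unless another set is named.

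Among all genes ranked by UMIs in T cell barcodes, the effector genes ran from rank 61 for CCL4 to rank 3985 for GZMH. Together they held 8044 of 878251 UMIs, or 9159 CPM (8960 to 9361), against 8.10 CPM (7.49 to 8.75) in tumour barcodes and 0.363 CPM (0.248 to 0.513) in the parental library. Without the 34 barcodes rich in melanoma RNA the T cell value was 15221 CPM. The 3 chemokine genes supplied 55.1% of these UMIs, the 3 granzymes 29.5%, the other granule genes 10.9% and IFNG 4.51%. All 10 genes passed the limit of 5 CPM in T cell barcodes or tumour barcodes, and all 10 were at least 2-fold higher in T cell barcodes, where 18.5% of the 10493 genes past that limit were. Their median log2 ratio was 10.28, beside 0.13 for all genes past the limit. Counts from this kit are taken at the 3′ end, 1 per molecule, and are not scaled by gene length.

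**Figure D1:**
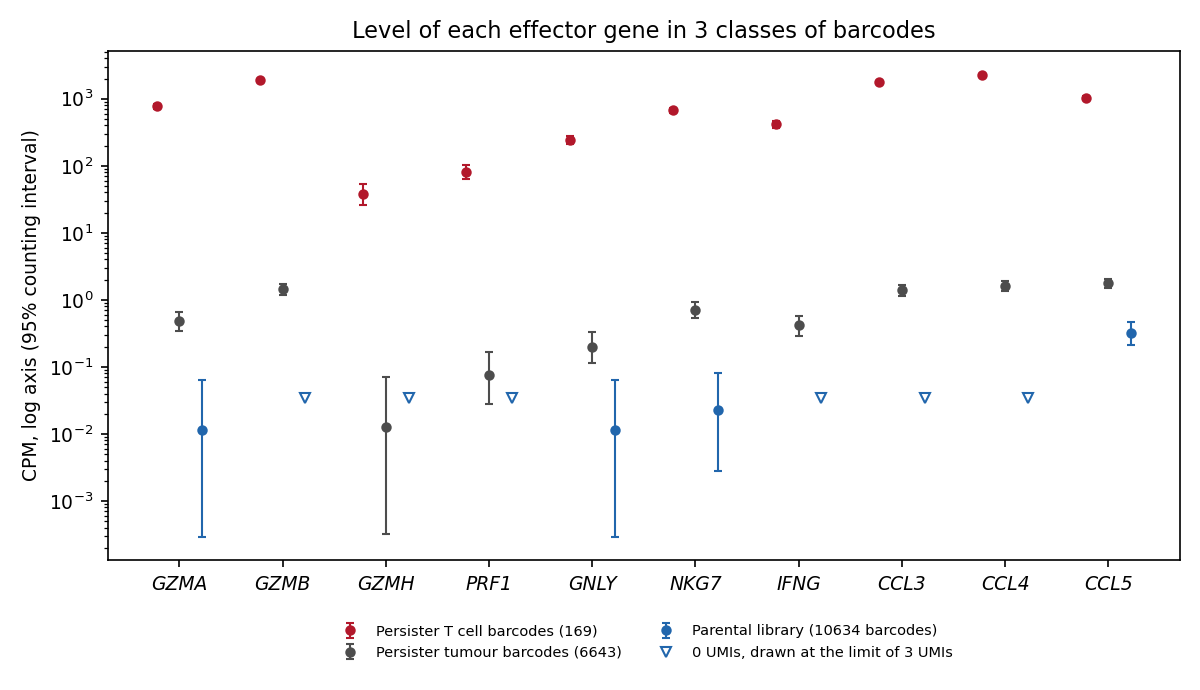
Level of each effector gene in CPM (log axis) in 169 persister T cell barcodes, 6643 persister tumour barcodes and 10634 parental barcodes, with 95% exact Poisson intervals for counting error. Open triangles stand for 0 UMIs and are drawn at the limit of 3 UMIs; the T cell points run from 37.6 CPM for GZMH to 2245 CPM for CCL4, while no tumour point is above 1.76 CPM.

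In order of level within the T cell barcodes, CCL4 stood first at 2245 CPM, then GZMB at 1890, CCL3 at 1776, CCL5 at 1026, GZMA at 769.7, NKG7 at 672.9, IFNG at 413.3, GNLY at 245.9, PRF1 at 82.0 and GZMH at 37.6 CPM. Neighbours in this order had separate counting intervals, with 2 exceptions. The intervals of GZMB (1800 to 1983 CPM) and CCL3 (1689 to 1867 CPM) overlapped, and so did those of GZMA (712.8 to 830.0 CPM) and NKG7 (619.8 to 729.4 CPM). In the 135 barcodes with fewer than 3 melanoma markers the order was the same, from 3812 CPM for CCL4 to 55.8 CPM for GZMH. There GZMA (1210 to 1424 CPM) and NKG7 (981.2 to 1175 CPM) had separate intervals, while those of GZMB and CCL3 still overlapped. Among genes that are neither mitochondrial nor ribosomal, CCL4 was 15th by level in T cell barcodes, GZMB 20th and CCL3 25th.

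The start regions of 4 effector genes are shown because they span the range of levels: GZMB, the highest granzyme, GZMH, the lowest granzyme and a neighbour of GZMB on chromosome 14, and the inducible genes IFNG and CCL3. Each is the 250 bases before the RefSeq start site on GRCh38.p14, given 5′ to 3′ on the minus strand of the genome. That is the coding strand of all 4 genes. The stretches are chr14:24634191-24634440 for GZMB, chr14:24609686-24609935 for GZMH, chr12:68159741-68159990 for IFNG and chr17:36090144-36090393 for CCL3. The gene positions given below come from another annotation, GENCODE. Its starts (24634267 for GZMB, 24609699 for GZMH, 68159747 for IFNG and 36090169 for CCL3) lie inside these stretches. By GENCODE the last bases of each stretch are therefore within the gene, and for GZMB they hold its 2 NFAT core matches. Capitals mark matches, on either strand, to 4 motifs of factors that act in activated T cells: the NFAT core (GGAAA), AP-1 (TGANTCA), RUNX (TGTGGT) and T-box (GGTGTGA).
GZMB: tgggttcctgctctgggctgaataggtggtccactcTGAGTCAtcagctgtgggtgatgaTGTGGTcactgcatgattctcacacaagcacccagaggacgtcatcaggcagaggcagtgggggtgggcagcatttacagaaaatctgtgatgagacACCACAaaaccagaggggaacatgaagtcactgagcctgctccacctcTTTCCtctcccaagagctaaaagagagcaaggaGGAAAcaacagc
GZMH: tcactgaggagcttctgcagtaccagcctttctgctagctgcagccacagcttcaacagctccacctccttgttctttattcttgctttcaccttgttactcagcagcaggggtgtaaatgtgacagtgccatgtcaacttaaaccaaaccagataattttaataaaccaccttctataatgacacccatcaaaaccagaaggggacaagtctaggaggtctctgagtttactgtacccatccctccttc
IFNG: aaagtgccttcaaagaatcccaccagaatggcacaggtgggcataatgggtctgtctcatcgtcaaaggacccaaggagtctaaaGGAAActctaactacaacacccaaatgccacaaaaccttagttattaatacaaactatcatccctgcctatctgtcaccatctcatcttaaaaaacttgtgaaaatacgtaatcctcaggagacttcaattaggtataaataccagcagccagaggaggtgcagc
CCL3: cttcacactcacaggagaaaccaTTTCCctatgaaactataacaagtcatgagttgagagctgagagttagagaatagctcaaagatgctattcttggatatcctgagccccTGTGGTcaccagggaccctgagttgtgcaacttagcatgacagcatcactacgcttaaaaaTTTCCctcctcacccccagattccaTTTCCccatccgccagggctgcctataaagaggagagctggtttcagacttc

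GZMB held 2 NFAT core, 1 AP-1 and 2 RUNX matches, and CCL3 held 3 NFAT core matches and 1 RUNX match. IFNG held 1 NFAT core match and GZMH had 0 matches to any of the 4. Of 35116 RefSeq windows of the same length, 55.7% held the NFAT core, 6.57% AP-1, 11.0% RUNX and 2.76% T-box. Windows were found for 8 of the 10 genes, and CCL4 and CCL5 had no entry. Of the windows not printed, GZMA held 3 NFAT core matches and 1 RUNX match, PRF1 and GNLY held 1 RUNX match each, and NKG7 had 0 matches. Whether matches go with level was not tested. A match describes letters in this window and is not a binding site.

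The granzymes differed widely in level, in the order GZMB, GZMA, GZMH. GZMB (chromosome 14, 24630954 to 24634267, minus strand, GRCh38) encodes granzyme B, which cuts after aspartate and activates caspases. It had 1660 UMIs in T cell barcodes and a UMI in 140 of 169, or 82.8% (76.3 to 88.2%), against 1.44 CPM and 1.10% of tumour barcodes and 0 UMIs in the parental library. GZMA (chromosome 5, 55102648 to 55110252, plus strand) encodes granzyme A, a protease that cuts after basic residues. It was detected in 68.6% of T cell barcodes (61.1 to 75.5%), and stood at 0.477 CPM in tumour barcodes and 0.0113 CPM in the parental library, from 1 UMI. GZMH (chromosome 14, 24606480 to 24609699, minus strand), a close relative of GZMB, had 33 UMIs and was detected in 14.8% of T cell barcodes (9.81 to 21.1%). It had 1 UMI in tumour barcodes and 0 in the parental library. Of the 50-base stretches in the last 500 bases of GZMH transcripts, 4.48% also occur in GZMB, so some of its reads could fit both genes.

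GZMB was spread over most T cell barcodes, whereas much of the GZMA RNA lay in few. The median T cell barcode had 6 GZMB UMIs and the highest 64, with the lowest at 0. For GZMA the median was 2 and the highest 84. That 1 barcode held 12.4% of all GZMA UMIs and was the barcode with the CD4 UMI; without it GZMA was 678.3 CPM. The 17 barcodes with most UMIs of a gene, 10% of the T cell barcodes, held 35.4% of GZMB and 48.5% of GZMA UMIs.

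Of the other granule genes, NKG7 was the most widely detected of all 10. NKG7 (chromosome 19, 51371606 to 51372715, minus strand) encodes a granule membrane protein needed for normal degranulation. It had a UMI in 147 of 169 T cell barcodes, or 87.0% (81.0 to 91.7%), against 0.723% of tumour barcodes and 0.0188% of parental barcodes. Its range was narrow, with a median of 3 UMIs and a highest value of 18. PRF1 (chromosome 10, 70597348 to 70602775, minus strand), which encodes perforin, had 72 UMIs and was detected in 26.0% of T cell barcodes (19.6 to 33.3%), with at most 5 UMIs in any. It had 6 UMIs in tumour barcodes and 0 in the parental library. GNLY (chromosome 2, 85685175 to 85698854, plus strand) encodes granulysin, a membrane-damaging granule protein. It was detected in 29.0% of T cell barcodes (22.3 to 36.5%), against 0.241% of tumour barcodes and 0.00940% of parental barcodes.

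GNLY was the most unevenly shared of the genes above 100 CPM. The 17 barcodes with most GNLY held 77.3% of its UMIs, against 32.3% for NKG7 in its own top 17. The median T cell barcode had 0 GNLY UMIs and the highest had 25.

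IFNG (chromosome 12, 68154768 to 68159747, minus strand) encodes interferon gamma. It had 363 UMIs, or 413.3 CPM (371.9 to 458.1), and a UMI in 52.7% of T cell barcodes (44.9 to 60.4%). In tumour barcodes it had 33 UMIs in 16 barcodes, and in the parental library 0. The highest T cell barcode held 45 UMIs, or 12.4% of the total, and the median was 1. The antisense gene IFNG-AS1 spans this locus on the plus strand and had 2 UMIs in T cell barcodes. Whether counting used strand is not stated.

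CCL4 had the highest level of the 10 effector genes, followed by GZMB and CCL3, whose intervals overlap, and then CCL5. CCL3 (chromosome 17, 36088256 to 36090169, minus strand) and CCL4 (chromosome 17, 36103590 to 36105621, plus strand) lie side by side and encode inflammatory chemokines. CCL4 was detected in 68.0% of T cell barcodes (60.4 to 75.0%), with a median of 3 and a highest value of 174 UMIs. CCL3 was detected in 63.9% (56.2 to 71.1%), with a median of 2 and a highest value of 130 UMIs. Their top 17 barcodes held 52.9% of CCL4 and 58.7% of CCL3 UMIs. Tumour barcodes had 1.61 CPM of CCL4 and 1.41 CPM of CCL3, and the parental library 0 UMIs of either. The near-identical genes CCL4L2 and CCL3L1 had 60.3 and 6.83 CPM in T cell barcodes. They share 21.3% and 13.5% of the 50-base stretches near the 3′ end of CCL4 and CCL3, so the division of reads between each pair is uncertain.

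CCL5 (chromosome 17, 35871491 to 35880793, minus strand), which encodes a ligand of CCR1 and CCR3, was detected in 82.2% of T cell barcodes (75.6 to 87.7%). Its median was 3 UMIs and its highest value 62. Tumour barcodes had 140 CCL5 UMIs, or 1.76 CPM (1.48 to 2.07), and the parental library 28 UMIs in 22 barcodes, or 0.318 CPM (0.211 to 0.459). It was the one gene of the 10 with more than 2 UMIs in the parental library. Of 50-base stretches near the 3′ end of CCL5, 16.6% occur in other annotated transcripts.

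Depth affected how often each gene was seen. When each T cell barcode was thinned to 1000 UMIs, GZMB was detected in 68.6%, NKG7 in 56.8%, CCL5 in 53.8%, CCL4 in 50.3%, CCL3 in 47.9% and GZMA in 44.4%. IFNG was then detected in 31.4%, GNLY in 16.6%, PRF1 in 7.10% and GZMH in 3.55%. At that depth GZMB came first, while NKG7 came first with all UMIs. Thinned tumour barcodes had each gene in at most 0.301%, and thinned parental barcodes in at most 0.0282%.

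**Figure D2:**
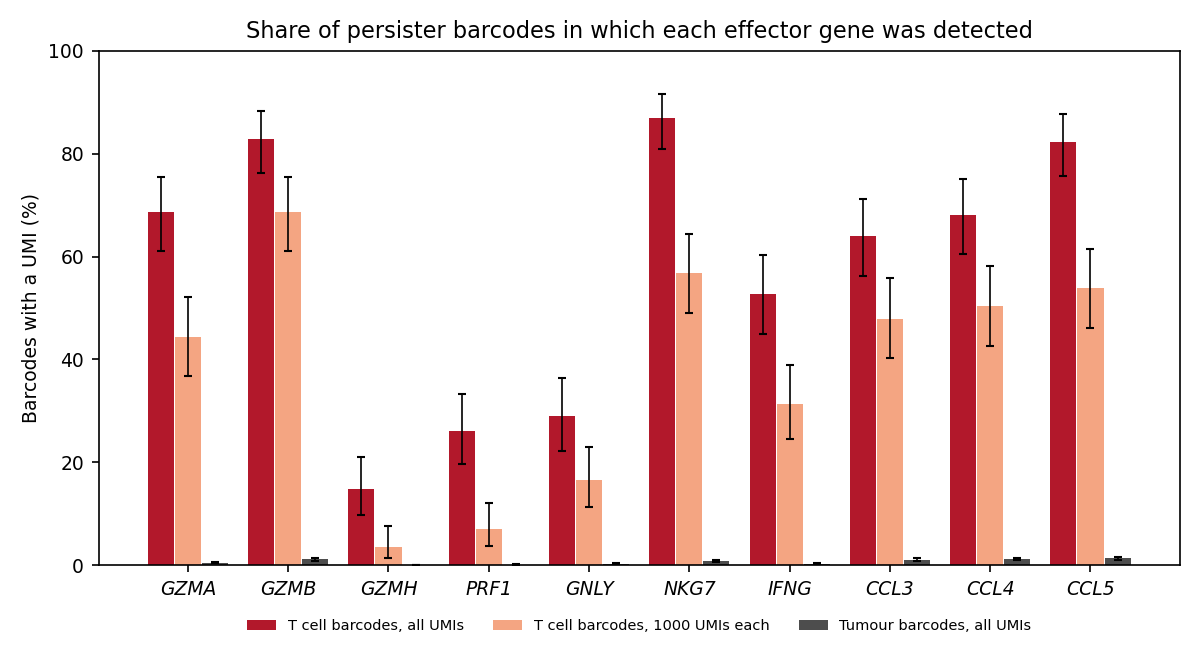
Share of persister barcodes with at least 1 UMI of each effector gene, in percent, for 169 T cell barcodes with all UMIs, the same barcodes thinned to 1000 UMIs each, and 6643 tumour barcodes with all UMIs; bars carry 95% exact binomial intervals. NKG7 reaches 87.0% with all UMIs and 56.8% at 1000 UMIs, GZMB 82.8% and 68.6%, and no tumour bar is above 1.29%.

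Most T cell barcodes carried several effector genes at once. A median of 6 of the 10 genes was detected per T cell barcode, and 165 of 169 had at least 1. At least 5 genes were detected in 72.2% (64.8 to 78.8%) and at least 7 in 44.4% (36.8 to 52.2%). At 1000 UMIs per barcode the median was 4, and 41.4% (33.9 to 49.2%) had at least 5. In tumour barcodes at least 1 gene was detected in 5.27% and at least 5 in 5 of 6643 barcodes. In the parental library 26 of 10634 barcodes had 1 gene and 0 had more (an upper limit of 0.0282%).

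**Figure D3:**
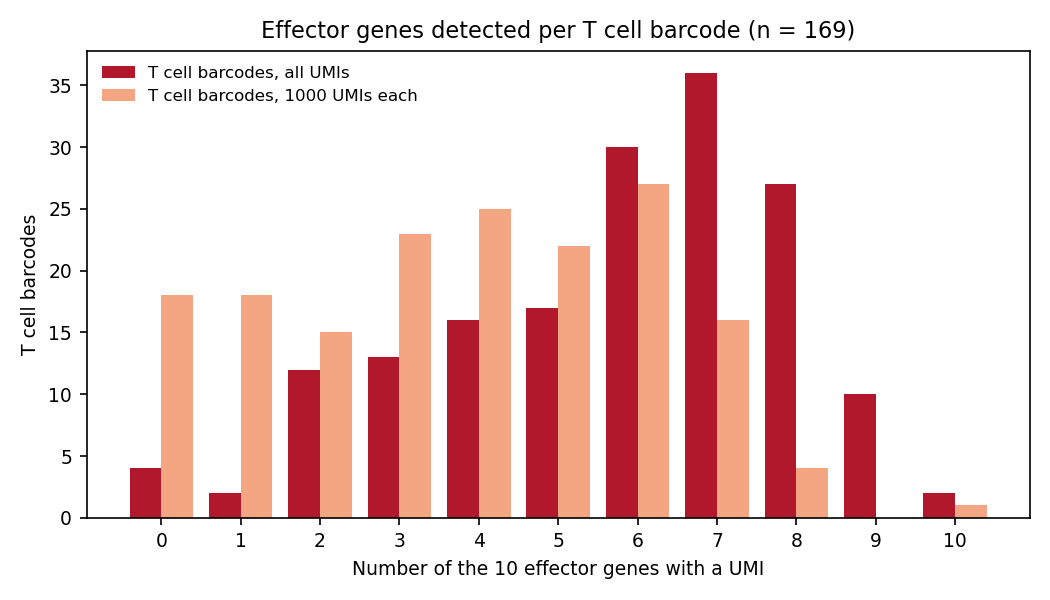
Number of T cell barcodes (of 169) by how many of the 10 effector genes had a UMI, with all UMIs and after thinning to 1000 UMIs each. The median is 6 genes with all UMIs and 4 genes at 1000 UMIs, and 4 barcodes have none with all UMIs.

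Pairs of effector genes were compared with the product of their separate shares, at 1000 UMIs per barcode. Pairs of other genes were not counted, so whether the values are particular to effector genes was not tested. Over all 169 T cell barcodes, 42 of 45 pairs were found together more often than that product, with a median ratio of 1.29. Such a ratio is raised where some barcodes carry less T cell RNA than others, so the values that follow are from the 135 barcodes with fewer than 3 melanoma markers, a restriction chosen after the values were seen. There the median ratio over 45 pairs was 1.18, with 42 above 1, 2 below and 1 equal to it. GZMH, seen in 5 of the 135 barcodes, and PRF1, seen in 12, gave ratios from few barcodes; in the 28 pairs of the other 8 genes, 27 ratios were above 1, with a median of 1.14.

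CCL3, CCL4 and IFNG were often found together. CCL3 and CCL4 had a ratio of 1.40, CCL3 and IFNG 1.40, and CCL4 and IFNG 1.33. GZMB was detected with IFNG at a ratio of 1.18, and IFNG was seen in 45.6% (35.8 to 55.7%) of barcodes with GZMB and 15.6% (5.28 to 32.8%) of those without. All 12 barcodes with PRF1 also had GZMB, against 74.0% (65.3 to 81.5%) of barcodes without PRF1. With all UMIs of the 169 T cell barcodes, 41 of 44 barcodes with PRF1 had GZMB, or 93.2%, against 79.2% of those without. GNLY went with CCL5: 21 of 23 barcodes with GNLY had CCL5, or 91.3% (72.0 to 98.9%), against 53.6% (43.9 to 63.0%) of barcodes without GNLY.

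Of the 28 pairs without GZMH and PRF1, GNLY and IFNG were the exception at this depth. They were found together in 4 of the 135 barcodes, a ratio of 0.452. IFNG was detected in 17.4% (4.95 to 38.8%) of barcodes with GNLY and in 42.9% (33.5 to 52.6%) of barcodes without it, and these counting intervals overlap. Over all 169 barcodes the ratio was 0.569, from 5 barcodes with both. With all UMIs of the 169 barcodes it was nearer 1, at 0.891, and 23 barcodes had both. IFNG was then detected in 46.9% (32.5 to 61.7%) of barcodes with GNLY and 55.0% (45.7 to 64.1%) of those without.

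**Figure D4:**
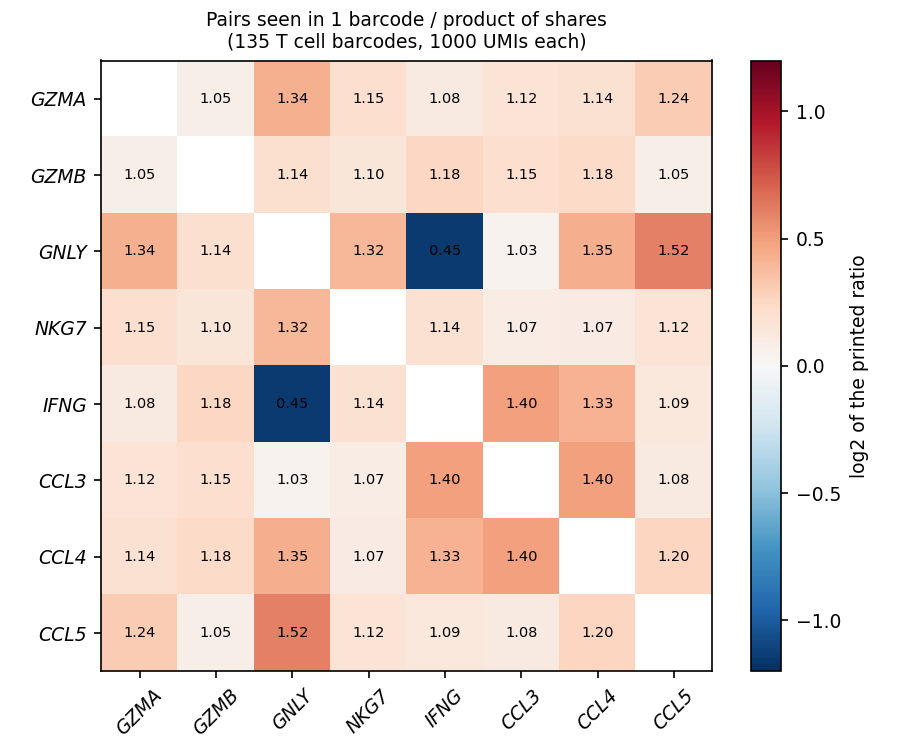
Share of barcodes with both genes divided by the product of the separate shares, for 8 effector genes in 135 T cell barcodes with fewer than 3 melanoma markers, each thinned to 1000 UMIs; GZMH and PRF1 are left out because few barcodes had them. Colour is the log2 of the printed ratio. The highest ratio is 1.52 for CCL5 with GNLY and the lowest 0.45 for GNLY with IFNG.

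UMI sums of some effector genes had separate counting intervals in T cell barcodes with and without a CD8 UMI. The shares of barcodes with each gene had overlapping intervals. Among the 135 barcodes, split in this way after the values were seen, those with a CD8A or CD8B UMI numbered 65 and had a median of 3496 UMIs, and the 70 without one had 2795.5, so a missing CD8 UMI does not make a barcode CD8-negative. IFNG was 998.8 CPM (873.6 to 1137) in barcodes with a CD8 UMI and 515.8 CPM (425.1 to 620.2) in those without. CCL5 was 1971 CPM (1794 to 2162) with and 1274 CPM (1128 to 1432) without a CD8 UMI, and CCL3 and CCL4 were also higher with a CD8 UMI. CCL3 was 3393 CPM (3159 to 3640) with and 2488 CPM (2283 to 2706) without, and CCL4 4266 CPM (4003 to 4542) with and 3337 CPM (3099 to 3588) without. GNLY and GZMA ran the other way in CPM. GNLY was 239.9 CPM (180.7 to 312.3) with and 547.8 CPM (454.2 to 655.0) without, and GZMA 1086 CPM (955.3 to 1230) with and 1552 CPM (1391 to 1726) without. GNLY was detected in 27.7% of barcodes with a CD8 UMI (17.3 to 40.2%) and in 30.0% of those without (19.6 to 42.1%), and CCL5 in 83.1% with and 82.9% without. For GZMA the shares did not follow its CPM, at 75.4% with and 68.6% without a CD8 UMI. At 1000 UMIs, GZMA was detected in 58.5% with (45.6 to 70.6%) and 45.7% without (33.7 to 58.1%). IFNG was then detected in 43.1% with (30.8 to 56.0%) and 34.3% without (23.3 to 46.6%). GZMB was 3158 CPM (2932 to 3397) with and 3022 CPM (2796 to 3261) without, and these intervals overlap. These values come from barcodes of 1 library, a few of which hold much of GNLY, IFNG and GZMA. The counting intervals are therefore too narrow for a difference between cells. How many of all genes have separate intervals in the CD8 split was not counted, so whether it is particular to effector genes was not tested. Summed effector RNA was 16452 CPM with and 13932 CPM without a CD8 UMI. The same 135 were also split by a UMI of MKI67 or TOP2A, genes of cycling cells. The sum was 12623 CPM in the 72 with such a UMI (median depth 3789.5 UMIs) and 19357 CPM in the 63 without (2498 UMIs). The cause of that difference was not tested.

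Effector RNA in tumour barcodes was far lower, and its CPM rose with the number of T cell markers from 0 to 2. Each gene's level in tumour barcodes was between 0.0334% and 0.105% of its T cell level, except CCL5 at 0.171% (0.142 to 0.205%). Put the other way, the T cell level was 957 to 2992 times the tumour level for 9 genes, with GZMH resting on 1 tumour UMI (interval 501 to 121723), and 584 times for CCL5 (488 to 702). Summed effector RNA was 5.97 CPM (5.42 to 6.55) in persister barcodes with 0 T cell markers, 22.0 CPM (18.5 to 26.0) with 1 and 1084 CPM (844 to 1372) with 2. The last value came from 9 barcodes with 69 effector UMIs. Barcodes with 0 markers were the most numerous and held 437 of the 645 effector UMIs of tumour barcodes. Just inside the rule, with 3 markers, it was 1840 CPM (1604 to 2100) in 16 barcodes whose median was 3 melanoma markers. It was 8448 CPM with 4 markers, 7545 CPM with 5, 9800 CPM with 6, 10642 CPM with 7 and 21215 CPM with 8. Of the T cell markers themselves, TRAC was seen in 234 parental barcodes, and the other 7 in at most 10 parental barcodes each.

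**Figure D5:**
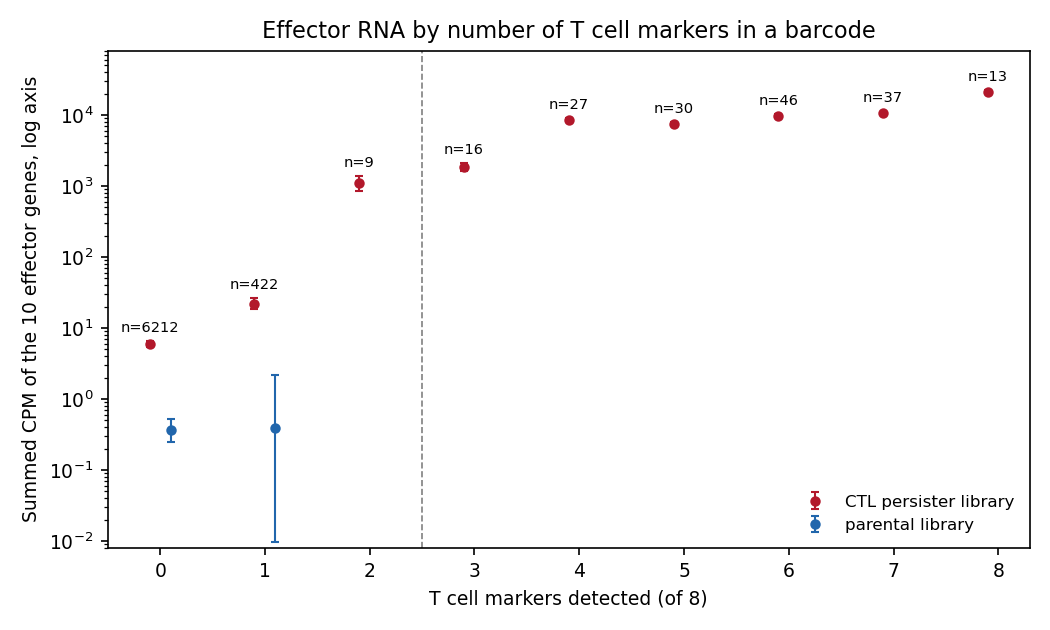
Summed level of the 10 effector genes in CPM (log axis) by the number of T cell markers detected in a barcode, in the persister library and the parental library, with 95% exact Poisson intervals; n is the number of persister barcodes and the dashed line is the limit of the T cell rule. Persister values run from 5.97 CPM with 0 markers to 21215 CPM with 8, and the parental values are 0.362 CPM with 0 markers and 0.386 CPM, from 1 UMI, with 1.

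A small number of tumour barcodes held much of this RNA. At least 3 effector genes were detected in 18 tumour barcodes, which had a median of 2 melanoma markers and 3576.5 UMIs and held 248 of the 645 effector UMIs, or 38.4%. The 332 tumour barcodes with 1 or 2 effector genes had a median of 4 melanoma markers and 12521.5 UMIs. Tumour barcodes with fewer than 2000 UMIs, a limit set after the values were seen, had 288.2 CPM of effector RNA (240.9 to 342.0), those from 2000 to below 5000 UMIs 82.6 CPM (68.9 to 98.3), and those with 5000 or more 4.98 CPM (4.50 to 5.51). In the shallowest of these classes the 308 barcodes without any T cell marker still had 172.8 CPM, and IFNG, CCL3 and CCL4 gave 16, 28 and 19 of its 76 effector UMIs. Those 308 barcodes had a median of 2.20% mitochondrial UMIs, against 11.3% in the 26 T cell barcodes of the same depth. The 3-marker limit leaves out T cells with few captured markers, and how many such cells are among the tumour barcodes was not tested.

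The mix of effector genes was not the same in each class. CCL5 made up 11.2% (10.5 to 11.9%) of effector UMIs in T cell barcodes, 25.6% (21.6 to 30.0%) in persister barcodes without a T cell marker and 87.5% (71.0 to 96.5%) in the parental library. GZMB made up 20.6% (19.8 to 21.5%) in T cell barcodes, 14.0% (10.8 to 17.6%) in persister barcodes without a T cell marker and 0 of 32 parental effector UMIs. CCL4 made up 24.5% (23.6 to 25.5%), 17.8% (14.4 to 21.8%) and 0 in the same order. GZMA, NKG7, IFNG and CCL3 had overlapping intervals between the 2 persister classes. Part of the CCL5 came from 3 tumour barcodes with 23, 10 and 4 CCL5 UMIs, at most 1 UMI of the other effector genes, 0 T cell markers and 2 to 5 melanoma markers. Without these 3, chosen after the values were seen, CCL5 in tumour barcodes was 1.29 CPM (1.06 to 1.57), or 0.126% (0.102 to 0.155%) of its T cell level.

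All 10 effector genes were below 5 CPM in both the tumour barcodes and the parental library. At that limit 10.1% of genes were at least 2-fold higher in tumour barcodes than in the parental library, and 0 of the 10 effector genes could be counted. With a limit of 1 UMI in place of 5 CPM, 14.4% of all genes were at least 2-fold higher in tumour barcodes, and so were 9 of the 10 effector genes. For PRF1 that call rests on 6 UMIs in tumour barcodes, and the bound was 1.85-fold with T cell barcodes taken from at least 2 markers, with the limit of 20% mitochondrial UMIs and with at least 1000 genes and 2000 UMIs. CCL5 was 5.53-fold higher in tumour barcodes than in the parental library (3.67 to 8.63). Against 0 parental UMIs, taken as 3, CCL4 was at least 47.2-fold higher, GZMB at least 42.4-fold, CCL3 at least 41.3-fold, IFNG at least 12.2-fold and PRF1 at least 2.21-fold. Against 1 or 2 parental UMIs, the ratio was 42.0 for GZMA (7.10 to 1704), 31.0 for NKG7 (8.19 to 262.1) and 17.7 for GNLY (2.75 to 742.4). GZMH had 1 UMI in tumour barcodes and 0 in the parental library, so no ratio is given. Whether these UMIs are free RNA from T cells or RNA of the tumour cells was not tested.

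Other genes of the killing programme were read from fixed lists, by the same 2-fold rule for T cell barcodes over tumour barcodes. Of 15 other granule and exocytosis genes, 14 passed 5 CPM, 10 were higher and 1 was lower (9 and 1 with TMM scaling), with a median log2 ratio of 4.64. SRGN, the proteoglycan that packs granules, stood at 479.4 CPM in T cell barcodes and 5.30 CPM in tumour barcodes. CTSW was 239.1 and 1.87 CPM, and CST7, a cathepsin inhibitor, 153.7 and 0.929 CPM in the same classes. CTSC, which activates granzymes, did not differ by 2-fold, at 242.5 CPM in T cell barcodes and 337.4 CPM in tumour barcodes. The gene that was lower was FGFBP2.

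Of 14 other secreted or surface effectors, 12 passed and all 12 were higher, with a median log2 ratio of 9.64. The chemokine gene CCL1 led at 604.6 CPM in T cell barcodes and 0.615 CPM in tumour barcodes, then LTB at 515.8 and 0.427 CPM, LTA at 250.5 and 0.314 CPM, and TNFSF10, which encodes TRAIL, at 144.6 and 0.226 CPM. FASLG and TNF were low, both at 28.5 CPM in T cell barcodes. IL2 had 0 UMIs in T cell barcodes, which allows up to 3.42 CPM, and CCL3L3 was not analysed here.

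Of 13 transcription factors of effector T cells, all passed, 12 were higher and 0 lower, with a median log2 ratio of 4.10; with TMM scaling 1 was lower. RUNX3 was 301.7 CPM in T cell barcodes and 22.7 CPM in tumour barcodes, HOPX 222.0 and 0.239 CPM, BHLHE40 150.3 and 8.93 CPM, and BATF 143.5 and 0.138 CPM. Of 17 activation and inhibitory receptors, 14 passed and all 14 were higher, with a median log2 ratio of 9.14. CRTAM stood at 475.9 CPM in T cell barcodes and 0.590 CPM in tumour barcodes, IL2RA, the alpha chain of the IL-2 receptor, at 471.4 and 0.226 CPM, TNFRSF9 at 248.2 and 1.37 CPM, and ENTPD1 at 241.4 and 0.414 CPM. PDCD1, which encodes PD-1, had 3 UMIs in T cell barcodes. Without the 34 barcodes rich in melanoma RNA, counts that were added after the values were seen, the higher and lower genes numbered 11 and 2 for granule genes, 12 and 0 for secreted effectors, 12 and 1 for transcription factors, and 14 and 0 for receptors.

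Genes of a fixed list of receptors, drawn up for the secreted products, were looked up in tumour barcodes. IFNGR2 and IFNGR1, the chains of the interferon gamma receptor, stood at 15.9 and 9.11 CPM in T cell barcodes, 32.9 and 9.05 CPM in tumour barcodes, and 25.8 and 7.26 CPM in the parental library. In the 135 T cell barcodes with fewer than 3 melanoma markers, IFNGR2 was only 2.23 CPM and IFNGR1 was 13.4 CPM. In T cell barcodes CCR1 was 4.55 CPM and CCR3 had 0 UMIs. CCR4, which is on the list but is not taken here as a receptor of the secreted products, was 13.7 CPM there. In tumour barcodes CCR1 had 4 UMIs and CCR4 had 1 UMI, and CCR3 had 0, which allows up to 0.0377 CPM.

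The genes most like the effector genes were taken as the 10 with the highest ratio of T cell to tumour level among 724 genes with at least 200 CPM in T cell barcodes, leaving out the T cell markers of the rule. They were IL2RA at 2085, SLA at 1750, LINC01871 at 1520, ALOX5AP at 1397, LTB at 1208, CCL1 at 983, HOPX at 931, PMCH at 834, CRTAM at 806 and LTA at 798. The same ratio was 1613 for GZMA, 1397 for CCL4, 1309 for GZMB, 1263 for CCL3, 1224 for GNLY, 997 for IFNG and 957 for NKG7, and CCL5, at 584, lay below all 10 of the listed genes. The 10 were picked by this same ratio, so their place above CCL5 follows in part from the choice. GZMH and PRF1 were below the limit of 200 CPM.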

How the data were processed

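Single-cell 3′ libraries, 1 per group, were made with a 10x Chromium v3 kit, per the labels' protocols. The authors deposited raw UMI counts for each gene in each barcode. Per the submitters' processing notes, the tool was Cell Ranger 3.1.0 and the build GRCh38; annotation release and strand setting are not stated. The effector genes, gene lists, markers and alternatives were chosen with earlier results of these data known.

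Kept barcodes had at least 500 genes and 1000 UMIs (6812 of 7144 persister and 10634 of 10751 parental), with no limit on mitochondrial UMIs and no doublet removal. UMIs were summed per class and scaled to 1000000 (CPM), giving 878251 UMIs for T cell barcodes, 79634099 for tumour barcodes and 88118235 for the parental library. Genes with at least 5 CPM in either sum were compared by a 2-fold rule, and a count of 0 was set to 3 UMIs. Intervals are 95% exact Poisson and Clopper-Pearson intervals; those of ratios condition on the total count. They cover counting error only, and barcodes of 1 library are not replicates. The named genes are the 10 effector genes, the 4 of each list highest in T cell barcodes and the 10 most alike; a few others were named after their values were seen. 1 listed gene is not reported here. Gene positions came from GENCODE v29 (GRCh38), in which 33456 of 33538 gene IDs were found. The 2-fold rule, not the size of the ratios, was tried on simulated counts that held counting error only. Python 3.11.15, numpy 2.4.6, scipy 1.17.1, pandas 2.3.3, R 4.3.3 and, for the TMM alternative, edgeR 4.0.16 were used.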

Additional observations from a re-analysis of the deposited data

Results flagged for a closer look

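Effector RNA was also found in persister barcodes below the limit of 500 genes and 1000 UMIs, which enter no comparison. These 332 barcodes had a median of 819 UMIs and held 228 effector UMIs, or 785.2 CPM (686.6 to 894.0), while the 117 parental barcodes below the limit had 0 effector UMIs, which allows up to 31.3 CPM. An effector gene was detected in 34 of the 332. At least 3 T cell markers were detected in 10 of them, all 10 of which had an effector gene, and 9 barcodes had at least 5 effector genes. CCL5 made up 27.6% (21.9 to 33.9%) and CCL4 26.3% (20.7 to 32.5%) of these UMIs.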

How the results depend on the processing

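Every effector gene stayed higher in T cell barcodes than in tumour barcodes under each alternative run. Summed effector RNA in T cell barcodes was 8614 CPM with at least 2 T cell markers, 10307 CPM with at least 4, and 8927 CPM with at least 1000 genes and 2000 UMIs, which left 143 T cell barcodes. It was 15221 CPM in the 135 with fewer than 3 melanoma markers, with 1638 genes at least 2-fold lower than in tumour barcodes in place of 938. A limit of 20% mitochondrial UMIs on top of that, added after the data were seen, left 131 barcodes at 15259 CPM. In tumour barcodes the sum was 7.24 CPM with at least 2 markers, 10.8 CPM with at least 4, 7.18 CPM with the 20% mitochondrial limit, 6.48 CPM with the higher depth limit and 5.97 CPM with 0 markers. The ratio of these sums, 1131 as reported, was 951 with at least 4 markers, 1269 with the mitochondrial limit, 1377 with the higher depth limit, 1879 with fewer than 3 melanoma markers, 2125 with that and the mitochondrial limit, 1535 with 0 markers and 970 with TMM scaling. The share of T cell barcodes with at least 5 effector genes was 41.4% at 1000 UMIs and 57.3% at 2000 UMIs. Without the 5 CPM limit, 3534 genes were at least 2-fold higher in T cell barcodes in place of 1937, and for tumour barcodes over the parental library 3451 were higher and 3248 lower in place of 1000 and 1069.

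TMM scaling shifted log2 ratios by -0.22 for T cell over tumour barcodes, where 52.9% of 2-fold calls were higher in place of 67.4%, and by 0.11 for tumour barcodes over the parental library, where it was 58.7% in place of 48.3%. GZMH and PRF1, with 33 and 72 UMIs in T cell barcodes, are limited by depth. With 1 library per group no difference has a replicate check. No paired analysis was possible because each group has 1 library. The causes of the moves were not tested.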
